A study of Homo sapiens with 10 samples.

Results

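The prostate kallikreins examined here are 4 genes, KLK2, KLK3, KLK4 and KLK15. They were chosen by name, as the kallikreins best known from the prostate, with earlier results of these data known, and the rule used no measured value. All 4 were present among the 57353 gene symbols of the count table, and all 4 passed the filter on low counts that left 17230 genes to be tested.

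Kallikreins are secreted serine proteases that are made as inactive proforms and switched on when a short propeptide is cut away. In the luminal cells of the prostate their genes are known to be induced by androgen, the steroid hormone that maintains the gland. KLK3 encodes prostate-specific antigen (PSA), which cleaves the semenogelins that hold the seminal clot together and is measured in serum to follow prostate cancer. KLK2 is a trypsin-like protease that can activate the PSA proform, and KLK4 and KLK15 are further members that can do so in vitro.

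Gene counts came from 10 samples of LNCaP-C4-2 cells, a line derived from the LNCaP prostate cancer line that grows without androgen, kept in RPMI medium with serum. CPT1A, the enzyme that commits long-chain fatty acids to import into mitochondria, was lowered or raised in them. NT (2 samples) carried a control shRNA and KD (3 samples) a single shRNA against CPT1A, both delivered by lentivirus and selected with puromycin at 1 ug/ml. EV (2 samples) carried an empty lentiviral vector and OE (3 samples) a lentiviral CPT1A cDNA, both selected with blasticidin at 5 ug/ml. EV and NT, and likewise OE and KD, therefore also differ in vector and selection drug, and these cannot be told apart from a difference between the lines. One line of each kind was described with no separate transductions, so p-values measure the spread between samples of a line, which may be technical. In these bulk samples, fewer cells that express a gene and less RNA of that gene in each cell cannot be told apart.

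The 4 genes lie together on the long arm of chromosome 19 in the kallikrein cluster, a tandem array of related protease genes (GENCODE v44, GRCh38). KLK15 spans chr19:50825289-50837213 on the minus strand, KLK3 spans chr19:50854915-50860764 on the plus strand, KLK2 spans chr19:50861568-50880567 on the plus strand, and KLK4 spans chr19:50906351-50911395 on the minus strand. KLKP1, named as a pseudogene and listed in GENCODE v44 as a long noncoding RNA, sits between KLK2 and KLK4 at chr19:50882096-50896398. Another GENCODE entry with the same symbol shares 403 exon bases with it, and the counts here are per symbol. KLK2 and KLK3 are close copies, which matters for counting. Of 5074 distinct stretches of 50 bases in KLK3 transcripts, 11 (0.217%) also occurred in KLK2 transcripts, and 0 of 5769 stretches of 150 bases, the length of a read, did. How reads that matched several genes were treated, and whether strand was used, are not given in the sources used here. KLK15 overlaps the span of an antisense long noncoding RNA, with 0 shared exon bases.

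The sequences upstream of the genes are given as a description (RefSeq, GRCh38.p14, the 250 bases before the RefSeq gene start). KLK15 moved with KLK3 and KLK2 in KD against NT and in OE against EV, and KLK4 did not. In EV against NT the log2 fold changes were 0.70 for KLK2 and 0.47 for KLK3, beside 0.15 for KLK15. In OE against KD all 4 genes rose. Any part of the upstream sequences in this was not tested. The KLK3 window was chr19:50854665-50854914 on the plus strand, and the KLK4 window was chr19:50911396-50911645 on the minus strand. Capitals in the KLK3 window mark a 15-base stretch that begins with AGAACA, the core motif of the androgen response element, and the TATA motif TATAAA as it reads on the opposite strand.
KLK3: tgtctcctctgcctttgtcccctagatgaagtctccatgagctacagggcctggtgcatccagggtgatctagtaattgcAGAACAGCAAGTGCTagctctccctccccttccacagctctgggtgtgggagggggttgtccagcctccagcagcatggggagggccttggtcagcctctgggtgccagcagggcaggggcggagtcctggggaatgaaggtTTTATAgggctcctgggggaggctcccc
KLK4: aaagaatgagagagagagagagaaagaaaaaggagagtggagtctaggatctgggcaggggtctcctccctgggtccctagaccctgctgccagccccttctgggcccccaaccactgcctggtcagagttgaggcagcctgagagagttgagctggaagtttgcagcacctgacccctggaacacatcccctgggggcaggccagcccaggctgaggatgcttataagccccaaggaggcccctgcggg
AGAACA, searched on both strands, occurred in the KLK3 window at 170 bases before the start and in 12.4% of 35116 RefSeq promoter windows of the same length. It was not found in the windows of KLK2, KLK4 or KLK15. TATAAA, searched on both strands, was present in KLK3, KLK2 and KLK15, was not found in KLK4, and occurred in 10.7% of the windows. Both motifs were searched as exact matches only. Near matches were not counted, such as ggaaca and tataag, both of which the KLK4 window above contains.

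The stretch that aligned with it in KLK2 is shown beside that of KLK3, as 30 bases at chr19:50854737-50854766 for KLK3 and chr19:50873255-50873284 for KLK2, both on the plus strand. The RefSeq start of KLK2 at 50873439 lies inside its GENCODE span, and the KLK2 window overlaps 2 exons of longer GENCODE transcripts, as the KLK15 window overlaps 1, so the KLK2 stretch is not upstream of every transcript of the gene. Capitals mark the 15 aligned bases.
KLK3: gtaattgcAGAACAGCAAGTGCTagctctc
KLK2: gtatgtgtGGAACAGCAAGTGCTggctctc
Within these 15 bases the pair differed at 1 position, A1G, counted from the first capital with the KLK3 base given first. Across the whole windows, 211 of 237 aligned bases (89.0%) were identical between KLK3 and KLK2. The identity was 65.3% between KLK3 and KLK4 and 66.2% between KLK3 and KLK15. These matches describe the sequence and do not show binding in these cells.

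Libraries held 23555205 to 28615770 counts, and levels are given as CPM, counts relative to the library size after TMM scaling. On that scale 3 counts corresponded to 0.0995 to 0.136 CPM. The targeted gene matched the labels. CPT1A was 264 ± 2.65 CPM in NT (SD, n = 2), 84.6 ± 2.92 in KD (n = 3), 322 ± 5.67 in EV (n = 2) and 882 ± 28.2 in OE (n = 3). The cells had the markers of luminal prostate (KRT8, KRT18, EPCAM, FOLH1 and HOXB13), with 5 of 5 tested and a summed level of 2141 to 2165 CPM in NT, 1943 to 2098 in KD, 2168 to 2234 in EV and 2590 to 2724 in OE. The 5 did not move as 1 group. EPCAM fell by 0.58 in OE against EV (adjusted p = 1.21e-08) and FOLH1 fell by 0.55 in KD against NT (adjusted p = 7.15e-10), while HOXB13 rose in both comparisons and KRT8 and KRT18 rose in OE. All 4 leukocyte markers, the basal markers KRT5 and TP63 and the neuroendocrine markers CHGA, CHGB and INSM1 stayed under 10 counts in every library. The basal marker KRT14 had 9 to 47 counts and rose by 1.97 in KD (adjusted p = 1.07e-05). Of the neuroendocrine markers, SYP had 45 to 88 counts and was called in no comparison, and ENO2, with 347 to 1145 counts, fell by 0.79 in KD (adjusted p = 1.52e-07) and rose by 1.12 in OE (adjusted p = 8.37e-10). The part of these markers in the results below was not tested.

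KLK3 was the most abundant of the 4 and took 0.249% of all counts in NT and 0.550% in OE. Its level was 2355 and 2576 CPM in the NT samples and 4234, 4649 and 4441.5 CPM in the KD samples. It was 3487 and 3336 CPM in the EV samples and 5757, 5946 and 5731 CPM in the OE samples. The lines followed the order NT, EV, KD, OE from low to high, with no overlap between any of them. The group levels were 2466 ± 157, 3412 ± 107, 4442 ± 207 and 5811 ± 117 CPM (SD).

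KLK2 had 439.96 and 459.7 CPM in the NT samples and 728, 802 and 789 CPM in the KD samples. In the EV samples it had 772 and 685 CPM, and in the OE samples 1196, 1248 and 1168 CPM. NT was lowest and OE highest, as for KLK3, but here the KD and EV samples overlapped. KD averaged 773 ± 39.8 CPM against 449.83 ± 14.0 in NT, and OE averaged 1204 ± 40.5 CPM against 729 ± 61.5 in EV (SD).

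KLK15 was far less abundant, with 149 to 430 counts in a library. Its level was 6.30 and 5.96 CPM in the NT samples, 10.2, 12.6 and 12.8 CPM in the KD samples, 7.57 and 6.04 CPM in the EV samples, and 17.15, 17.5 and 15.8 CPM in the OE samples. The NT and EV samples overlapped, the KD samples lay above both, and the OE samples lay above KD.

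KLK4 had a different order. Its level was 284 and 279 CPM in the NT samples and 184, 217 and 190.16 CPM in the KD samples. It was 317 and 300.47 CPM in the EV samples and 269.85, 269.79 and 270.31 CPM in the OE samples. No groups overlapped. KD was lowest, OE lay just below NT, and EV was highest.

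**Figure D1:**
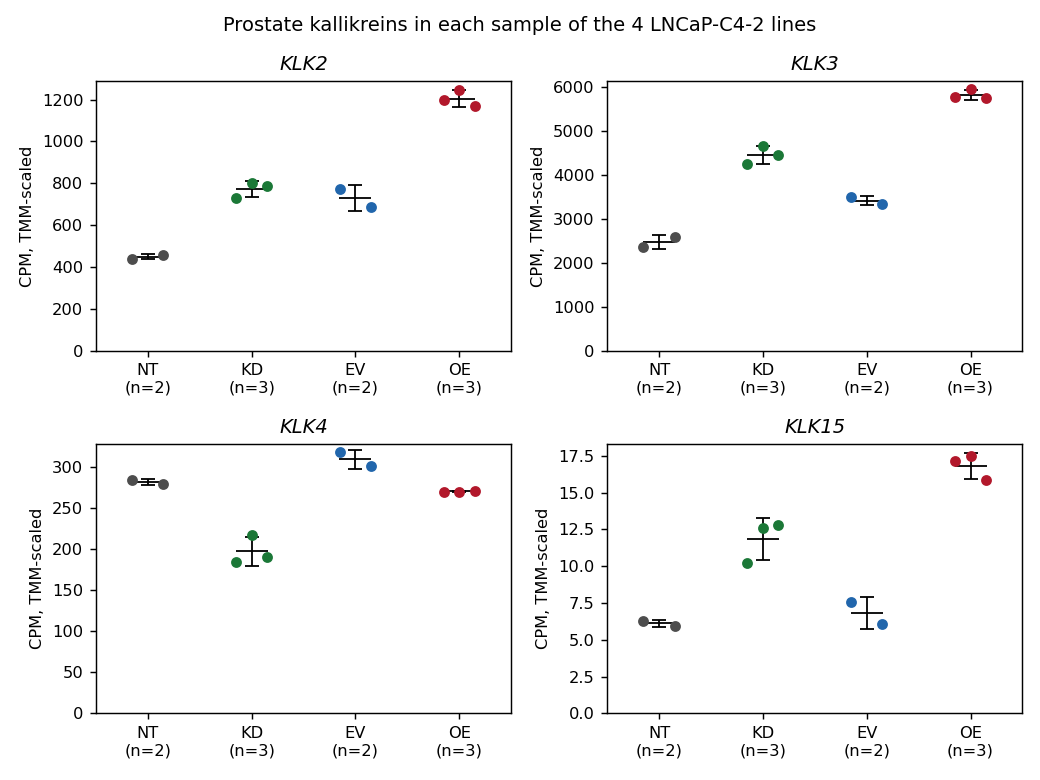
Level of KLK2, KLK3, KLK4 and KLK15 in each sample, in TMM-scaled CPM on a linear axis that starts at 0, for NT (n = 2), KD (n = 3), EV (n = 2) and OE (n = 3). Points are samples, the horizontal mark is the mean and the bar is the SD; KLK2, KLK3 and KLK15 are highest in OE, and KLK4 is lowest in KD.

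The first question was how the prostate kallikreins differed between KD, where CPT1A was lowered, and NT. With a single line of each kind, an effect of CPT1A cannot be told apart from another difference between the lines. KLK2, KLK3 and KLK15 rose in KD against NT, and KLK4 fell. The rise was 1.80-fold for KLK3, 1.72-fold for KLK2 and 1.94-fold for KLK15, while KLK4 was at 0.701 of its NT level. Among all 17230 tested genes, 2823 (16.4%) were called higher and 2199 (12.8%) lower in this comparison at an adjusted p under 0.0001. On the log2 scale, KLK3 rose by 0.85 (SE 0.054, adjusted p = 2.02e-12) in the edgeR quasi-likelihood test with Benjamini-Hochberg adjustment. KLK2 rose by 0.78 (SE 0.056, adjusted p = 1.74e-11) in the same test. The rise of KLK15 was 0.95 (SE 0.12, adjusted p = 3.02e-07), with a wider 95% interval of 0.71 to 1.20. KLK4 fell by 0.51 (SE 0.055, adjusted p = 2.07e-08). The median log2 fold change of all tested genes was -0.02. Each of these 4 calls held under every alternative fit that was run.

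The second question was how they differed between OE, where CPT1A was raised, and EV. The same 3 genes, KLK2, KLK3 and KLK15, rose in OE against EV. KLK15 had the largest rise of the 4, 2.47-fold, and KLK3 and KLK2 rose 1.70-fold and 1.65-fold. KLK4 was at 0.874 of its EV level, which did not pass the limit for a call. In this comparison 2004 genes (11.6%) were called higher and 1774 (10.3%) lower. By edgeR the log2 fold change was 1.30 for KLK15 (SE 0.12, adjusted p = 2.79e-09), 0.77 for KLK3 (SE 0.054, adjusted p = 5.12e-11) and 0.72 for KLK2 (SE 0.055, adjusted p = 2.16e-10). For KLK4 it was -0.19 (SE 0.055, adjusted p = 0.00443), with a 95% interval of -0.31 to -0.08. The KLK4 value was called when counts were scaled to library size only (-0.29, adjusted p = 5.19e-05), with an offset for the GC content of genes (-0.43, adjusted p = 3.29e-09) and without the second KD sample (-0.19, adjusted p = 7.42e-05).

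The knockdown and the overexpression, which use separate controls, thus each went with higher KLK2, KLK3 and KLK15. Of the 4 kallikreins, 3 were called higher in both, against 913 of 17230 tested genes (5.30%). The difference between the arms is called the interaction, taken as the log2 fold change of OE versus EV less that of KD versus NT. It was -0.06 for KLK2 (95% interval -0.22 to 0.10, edgeR adjusted p = 0.579) and -0.08 for KLK3 (-0.23 to 0.07, adjusted p = 0.402). For KLK15 it was 0.35 (-0.0041 to 0.70, adjusted p = 0.102). For KLK4 it was 0.32 (0.16 to 0.48, adjusted p = 0.00177), which did not reach the limit with all 10 samples and did without the second KD sample (0.39, adjusted p = 8.44e-07). None of the 4 was called for the interaction, where 1196 genes (6.94%) were called higher and 1548 (8.98%) lower. At an adjusted p under 0.05 KLK4 would be called in the interaction and in OE against EV. The KLK15 interval leaves room for a rise in OE up to 0.70 larger than that in KD.

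**Figure D2:**
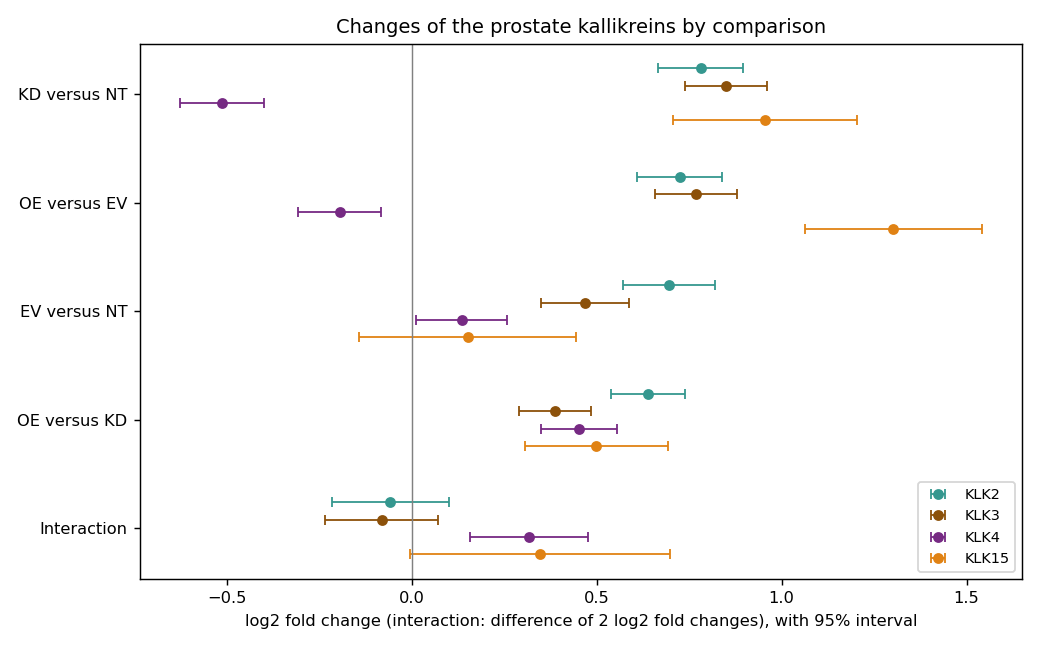
Log2 fold change of the 4 kallikreins (horizontal axis) in each of 5 comparisons (rows), with points for the edgeR estimates and bars for their 95% intervals. KLK2, KLK3 and KLK15 are to the right of 0 in KD versus NT and in OE versus EV, KLK4 is to the left in both, and for the interaction the intervals of KLK2, KLK3 and KLK15 include 0.

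The controls themselves differed, and the part of this in the changes of KD and OE was not tested. KLK2 and KLK3 rose in EV against NT, 1.62-fold and 1.38-fold, and KLK4 and KLK15 were not called. In this comparison 905 genes (5.25%) were called higher and 501 (2.91%) lower. The edgeR log2 fold change was 0.70 for KLK2 (SE 0.060, adjusted p = 3.41e-09) and 0.47 for KLK3 (SE 0.058, adjusted p = 9.84e-07). It was 0.14 for KLK4 (SE 0.060, adjusted p = 0.086) and 0.15 for KLK15 (SE 0.14, adjusted p = 0.445). The KLK3 value was 0.41 without the first NT sample (adjusted p = 0.00027) and 0.43 without the first EV sample (adjusted p = 0.000214), both short of the limit.

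Between the 2 lines with altered CPT1A, all 4 kallikreins rose in OE against KD. The rise was 1.56-fold for KLK2, 1.31-fold for KLK3, 1.37-fold for KLK4 and 1.41-fold for KLK15. In this comparison 2670 genes (15.5%) were called higher and 2820 (16.4%) lower. The edgeR log2 fold change was 0.64 for KLK2 (SE 0.048, adjusted p = 5.09e-11), 0.39 for KLK3 (SE 0.047, adjusted p = 1.37e-07) and 0.45 for KLK4 (SE 0.050, adjusted p = 2.74e-08). KLK15 was close to the limit at 0.50 (SE 0.093, adjusted p = 6.11e-05), and its adjusted p was above 0.0001 without the first KD sample (0.41, adjusted p = 0.000944), without any 1 of the 3 OE samples (0.47 to 0.54), with library size only (0.37, adjusted p = 0.00251), with the GC offset (0.38, adjusted p = 0.000416) and with a minimum of 10 counts in every sample (0.49, adjusted p = 0.000118). Scaling to library size only moved the median of all genes in this comparison by -0.13.

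The ratio of 2 kallikreins within a sample does not depend on how libraries are scaled. Per KLK2 count there were 5.35 and 5.60 KLK3 counts in the NT samples and 5.63 to 5.82 in the KD samples. There were 4.52 and 4.87 in the EV samples and 4.76 to 4.91 in the OE samples. KLK3 and KLK2 thus kept to a narrow range within each arm, with the puromycin-selected lines above the blasticidin-selected ones. KLK4 differed most between the lines in these ratios. Per 100 KLK2 counts it had 64.5 and 60.7 in the NT samples, 24.1 to 27.1 in the KD samples, 43.8 and 41.1 in the EV samples and 21.6 to 23.1 in the OE samples. The KD and OE samples did not overlap with their controls. The KLK2 counts in these ratios moved too. KLK2 rose 1.72-fold in KD and 1.65-fold in OE, with KLK4 at 0.701 and 0.874 of its control levels. KLK15 per 100 KLK2 counts was 1.43 and 1.30 in the NT samples and 1.41 to 1.62 in the KD samples, and it was 0.980 and 0.882 in the EV samples and 1.35 to 1.43 in the OE samples. It was lowest in the EV samples, with no overlap with OE, and the NT and KD samples overlapped. The ratios were compared without a test.

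**Figure D3:**
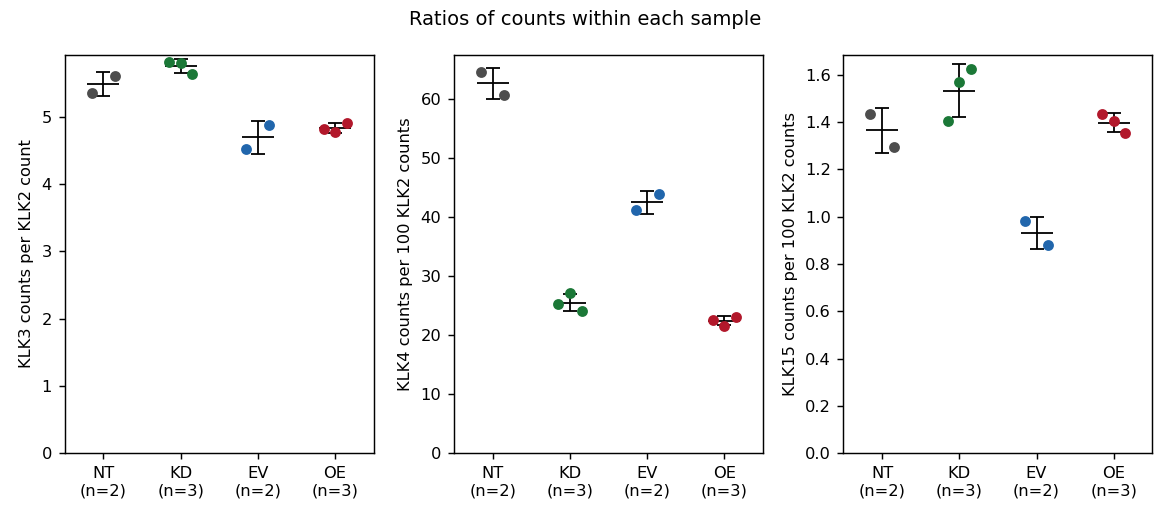
Counts of KLK3 per KLK2 count, of KLK4 per 100 KLK2 counts and of KLK15 per 100 KLK2 counts in each sample, by line, on axes that start at 0. Points are samples and the marks and bars are means and SD; KLK4 per 100 KLK2 is 62.6 in NT and 42.5 in EV against 25.5 in KD and 22.4 in OE.

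Together the 4 genes took 0.324% of all counts in NT, 0.452% in EV, 0.562% in KD and 0.692% in OE, with SD of 0.0097 to 0.021 percentage points. KLK3 made up 76.6% of the kallikrein counts in EV and 81.9% in KD. KLK4 was 8.80% of them in NT and 6.93% in EV, against 3.63% in KD and 3.70% in OE. These shares also depend on the KLK3 and KLK2 counts, which were higher in KD and OE than in their controls.

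Levels between the genes were compared per kilobase of exon. KLK3 was highest in every line, from 531 CPM per kilobase in NT (531.5 ± 33.8, SD) to 1253 in OE, and KLK15 was lowest, from 1.97 in NT to 5.40 in OE. KLK4 was above KLK2 in NT (140.36 against 70.8) and EV (154 against 115), and below it in KD (98.5 against 122) and OE (134.73 against 189.59), with no overlap between these samples. This order of KLK2 and KLK4 depended on the length used. KLK2 has long alternative exons, and per kilobase of coding sequence it was above KLK4 in all 4 lines (445 against 369 in NT).

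Of 12 other genes of the cluster, KLK1, KLKP1 and KLK12 could be tested, and the other 9 had at most 11 counts in any library. None of these 3 was called higher in both KD and OE, a share that 3 genes cannot set apart from the 5.30% of all genes. KLKP1, an androgen-regulated pseudogene, had 8.83 and 13.1 CPM in the NT samples, 17.5, 17.0 and 20.1 CPM in KD, 17.5 and 19.999 CPM in EV, and 14.3, 12.7 and 13.5 CPM in OE. KLKP1 rose by 0.74 in KD against NT (edgeR adjusted p = 1.21e-05), a call that was lost without the first NT sample (0.48, adjusted p = 0.00298), without the third KD sample (0.65, adjusted p = 0.00012) and with the arm fitted alone (adjusted p = 0.000376). In OE against EV it was at -0.47 (adjusted p = 0.00152), which was not called. Its interaction was -1.21 (adjusted p = 2.45e-06). KLK1, tissue kallikrein, was named after its values were seen, since its average level was below the limit for named genes. It had 17 and 17 counts in the NT libraries, 28, 31 and 45 in KD, 73 and 67 in EV and 10, 17 and 21 in OE. The EV samples lay above all others. KLK1 rose by 2.07 in EV against NT (adjusted p = 4.82e-06), and it fell by 2.07 in OE against EV (adjusted p = 3.94e-07) with an interaction of -3.02 (adjusted p = 1.01e-06). KLK12, also named after its values were seen, had 3 to 18 counts in a library and was called in no comparison, at 1.36 in KD (adjusted p = 0.0581) and 0.60 in OE (adjusted p = 0.264). Of 6 tested genes that flank the cluster, 2 rose in OE against EV, CTU1 by 0.95 (adjusted p = 5.46e-09) and CLEC11A by 0.76 (adjusted p = 5.21e-09). In KD against NT 1 was called higher and 1 lower, with ETFB rising by 0.43 (adjusted p = 2.52e-05). Of all genes, 11.6% were called higher in OE against EV, and 16.4% higher and 12.8% lower in KD against NT. The 6 flanking genes are too few to be set apart from these shares. The ETFB call was lost without the first NT sample (0.32, adjusted p = 0.0053), without the first KD sample (0.39, adjusted p = 0.000259) and with the arm fitted alone (adjusted p = 0.00033).

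**Figure D4:**
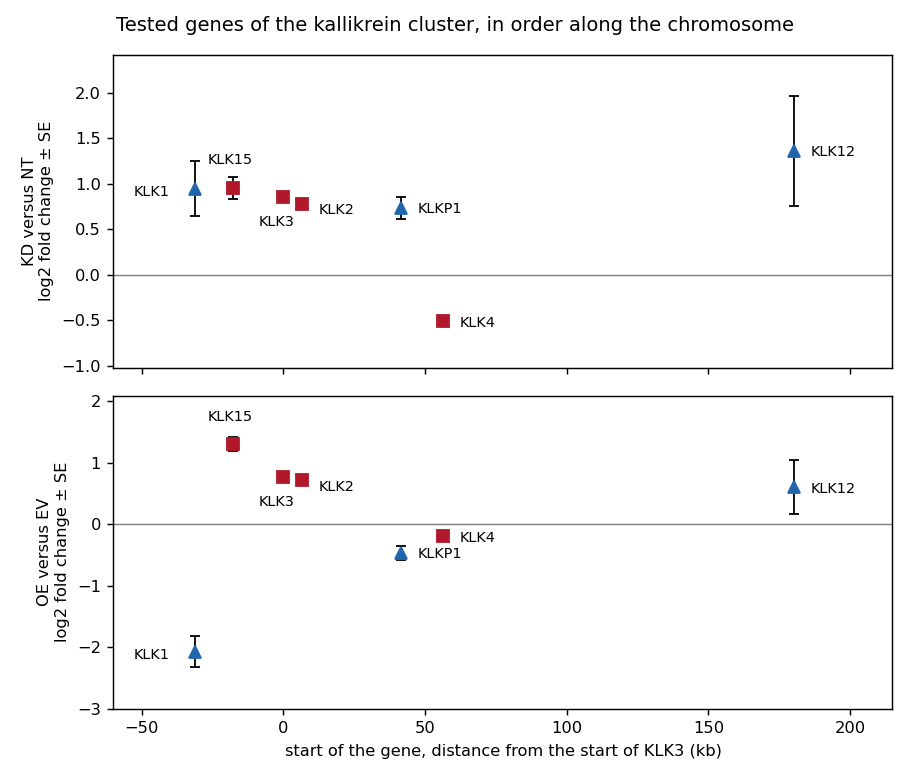
Log2 fold change in KD versus NT (upper panel) and OE versus EV (lower panel) of the 7 tested genes of the cluster, against the distance of each gene's start from the start of KLK3 in kilobases. Squares are the 4 prostate kallikreins, triangles are the other genes and bars are the SE; in OE versus EV, KLK15, KLK3 and KLK2 are above 0 while KLK1 and KLKP1, on both sides of them, are below it.

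Transcription factors and coregulators that act at androgen-induced genes were examined next. Of 14 tested genes of this list, 4 were called higher and 1 lower in KD against NT, and 7 higher and 0 lower in OE against EV. Among all tested genes the shares were 16.4% higher and 12.8% lower in KD, and 11.6% and 10.3% in OE. SPDEF, an Ets factor of prostate epithelium, rose by 0.89 in KD (adjusted p = 1.32e-12) and by 0.67 in OE (adjusted p = 5.93e-10) against their controls. GATA2, a zinc-finger factor, rose by 0.50 in KD (adjusted p = 1.59e-09) and 0.51 in OE (adjusted p = 3.59e-09). HOXB13, a homeobox factor of the prostate, rose by 0.35 in KD (adjusted p = 5.69e-06) and 0.72 in OE (adjusted p = 1.87e-10). GRHL2, an epithelial factor, rose by 0.49 (adjusted p = 1.55e-09) and 0.25 (adjusted p = 5.97e-05). These 4 (28.6% of the 14) were the genes of the list called higher in both arms, beside 5.30% of all genes. For 2 of them 1 of the calls was not stable. The HOXB13 call in KD was lost without the first NT sample (0.33, adjusted p = 0.000614), without the second (0.37, adjusted p = 0.000201) and with the GC offset (0.19, adjusted p = 0.000328). The GRHL2 call in OE was lost with library size only (0.15, adjusted p = 0.00298), with the GC offset (0.20, adjusted p = 0.000109) and without any 1 of the NT, EV or OE samples (0.23 to 0.29). FOXA1, a pioneer factor, rose by 0.26 in OE (adjusted p = 2e-05), with 0.21 in KD short of the limit (adjusted p = 0.000236). The FOXA1 call in OE was lost without either EV sample (0.28 and 0.26), without the first or the third OE sample (0.27 and 0.26), with library size only (0.16) and with the GC offset (0.20). For the other 9 genes, mostly coregulators, 0 were called higher and 1 lower in KD, and 2 higher and 0 lower in OE.

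Androgen-induced genes outside the cluster gave the closest comparison for the kallikreins. Of 26 listed genes, which include SPDEF and TMPRSS2 of the other lists, 25 could be tested. In KD against NT, 19 were called higher and 2 lower, with a median log2 fold change of 0.70 beside 0.82 for the 4 kallikreins. In OE against EV the list did not follow the kallikreins, since 5 were called higher and 7 lower with a median of -0.12, beside 0.75 for the kallikreins. For the interaction, 1 of the 25 was called higher and 17 lower with a median of -0.61, against 0 of 4 and a median of 0.13 for the kallikreins. In KD and OE alike, 4 of the 25 (16.0%) were called higher, beside 5.30% of all genes, and another 6 were called higher in KD and lower in OE, as were 164 of all 17230. The median over all tested genes was -0.02 in each of these 3 comparisons. In EV against NT, 19 of the 25 were called higher and 1 lower, with a median of 0.80. In OE against KD, 9 were called higher and 8 lower. Of all tested genes, 16.4% were called higher and 12.8% lower in KD against NT, and 11.6% and 10.3% in OE against EV. The shares were 5.25% and 2.91% in EV against NT, 15.5% and 16.4% in OE against KD, and 6.94% and 8.98% for the interaction. The list was set beside these shares without a test.

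FKBP5, a cochaperone of steroid receptors, had the smallest interaction p of the list and a different order of lines from KLK3. It had 99.4 and 96.1 CPM in the NT samples, 386, 332 and 359.79 CPM in KD, 288 and 262 CPM in EV, and 178, 177 and 181 CPM in OE. FKBP5 rose by 1.88 in KD against NT (edgeR adjusted p = 1.02e-17) and fell by 0.62 in OE against EV (adjusted p = 2.3e-09), so that OE lay below EV where KLK3 was at its highest. ACSL3, an acyl-CoA synthetase, rose by 1.10 in KD and fell by 0.71 in OE (adjusted p = 6.27e-13 and 2.13e-09). ABCC4, an efflux pump, rose by 0.91 and fell by 0.41 (adjusted p = 9.79e-14 and 1.06e-07), and RAB3B, a vesicle GTPase, rose by 0.78 and fell by 0.51 (adjusted p = 8.53e-13 and 2.53e-09). CENPN and the elongation factor ELL2 rose in KD by 1.23 (adjusted p = 1.77e-15) and 1.22 (adjusted p = 3.44e-14) and were not called in OE, at -0.07 (adjusted p = 0.229) and -0.16 (adjusted p = 0.0321). These 6 were named for having the smallest interaction p in the list, a choice that favours genes unlike KLK2 and KLK3.

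The 4 androgen-induced genes called higher in both arms were SLC45A3, NDRG1, CREB3L4 and SPDEF. The other 3 beside SPDEF were named after their values were seen. SLC45A3, the membrane protein prostein, rose by 1.47 in KD (adjusted p = 5.35e-17) and 0.45 in OE (adjusted p = 4.26e-08). NDRG1, a stress-responsive gene, rose by 0.44 (adjusted p = 4.34e-08) and 0.79 (adjusted p = 5.28e-12). CREB3L4 rose by 0.57 (adjusted p = 2.9e-09) and 0.30 (adjusted p = 4.46e-05).

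**Figure D5:**
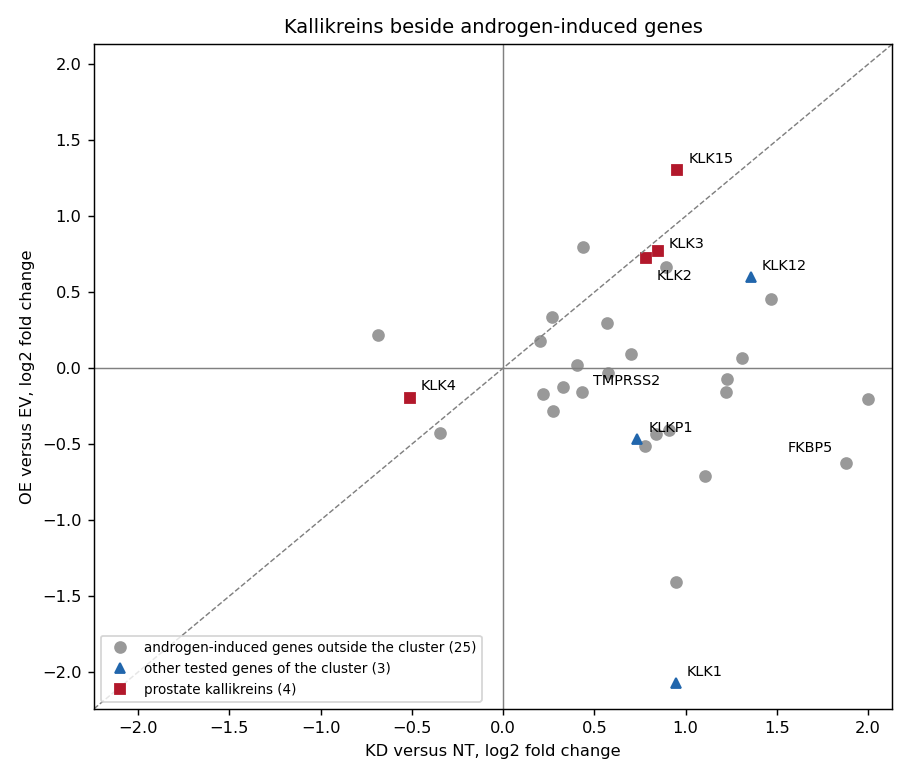
Log2 fold change in OE versus EV (vertical axis) against KD versus NT (horizontal axis) for the 4 prostate kallikreins (squares), the 3 other tested genes of the cluster (triangles) and 25 androgen-induced genes outside the cluster (circles); the dashed line marks equal changes. KLK2 and KLK3 lie near the line and KLK15 above it, while most circles lie below it and FKBP5 and KLK1 are below 0 on the vertical axis.

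Genes that act on kallikreins or are cut by them were examined as a further list. Of 29 listed, 18 could be tested, and the clot proteins SEMG1 and SEMG2 had at most 4 counts in any library. In KD against NT 9 were called higher and 2 lower, beside 16.4% and 12.8% of all genes. In OE against EV 5 were called higher and 1 lower, beside 11.6% and 10.3%. For the interaction 3 were called higher and 5 lower, beside 6.94% and 8.98%. FN1, DPP4 and SPINT1, 3 of the 18 (16.7%), were called higher in both arms, beside 5.30% of all genes. These shares were compared without a test. SPINT1 was named after its values were seen. The genes described next were chosen for a small interaction p, which favours genes unlike KLK2 and KLK3. IGFBP3, a carrier of insulin-like growth factors and a substrate of PSA, averaged 3.41 CPM in KD against 30.5 in NT, and 19.5 CPM in OE against 7.48 in EV. It fell by 3.17 in KD (adjusted p = 1.84e-16) and rose by 1.39 in OE (adjusted p = 1.73e-09), with an interaction of 4.56 (adjusted p = 5e-16). IGFBP3 was thus highest in NT, where KLK3 was lowest, and next highest in OE, where KLK3 was highest. FN1, the matrix protein fibronectin, rose by 0.85 in KD (adjusted p = 7.75e-13) and by 1.52 in OE (adjusted p = 1.03e-16). DPP4, a membrane peptidase, rose by 1.40 in KD (adjusted p = 9.1e-17) and 0.50 in OE (adjusted p = 7.52e-09). TMPRSS2, a membrane serine protease that is androgen-induced, rose by 0.43 in KD (adjusted p = 2.37e-07) and was at -0.16 in OE (adjusted p = 0.0138). CTSC, the protease cathepsin C, rose by 0.71 in KD (adjusted p = 1.38e-08) and was at -0.35 in OE (adjusted p = 0.000551). F2R, a thrombin receptor, was at 0.16 in KD (adjusted p = 0.205) and fell by 0.82 in OE (adjusted p = 2.26e-06), a call lost without the second EV sample (-0.77, adjusted p = 0.000226).

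Other secretory and luminal proteins of the prostate were mixed. Of 9 tested, 2 were called higher and 3 lower in KD against NT, beside 16.4% and 12.8% of all genes. In OE against EV 2 were called higher and 0 lower, beside 11.6% and 10.3%. None of the 9 was called higher in both, beside 5.30% of all genes. The 9 genes are too few to be set apart from these shares. MSMB, a secreted protein of the prostate named after its values were seen, ran in the direction of KLK2 and KLK3 in both arms at 12 to 65 counts, rising by 1.92 in KD (adjusted p = 6.18e-06) with 1.24 in OE short of the limit (adjusted p = 0.000601). The next 3 were named for a small interaction p, which favours genes unlike KLK2 and KLK3. ACPP, prostatic acid phosphatase, fell by 0.68 in KD (adjusted p = 7.08e-08) and was at 0.22 in OE (adjusted p = 0.0278). FOLH1, prostate-specific membrane antigen, fell by 0.55 in KD (adjusted p = 7.15e-10) and was at -0.14 in OE (adjusted p = 0.0182). AMACR, a racemase of branched fatty acids, rose by 0.57 in KD (adjusted p = 4.72e-07) and was at -0.30 in OE (adjusted p = 0.0018).

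The members were also compared with each other and with 12718 genes of at least moderate expression over the 10 samples, by Pearson r of log2 CPM. These values are descriptions, since the samples fall into 4 lines with 2 or 3 samples each. KLK2 and KLK3 had r = 0.97, KLK3 and KLK15 had 0.95 and KLK2 and KLK15 had 0.90. KLK4 had -0.07 with KLK2, -0.29 with KLK3 and -0.36 with KLK15. The genes most alike to KLK3 were RNPS1 (0.996), MRPL2 (0.993) and HSPB1 (0.993), and those most alike to KLK2 were FAM173A (0.996), SPDEF (0.993) and PEX10 (0.992). For KLK4 they were COL6A2 (0.991), SHC2 (0.990) and DUSP22 (0.987), and for KLK15 they were PMEL (0.992), FEM1A (0.986) and SH3BP5L (0.985). By Spearman rho, PMEL was the 1 gene of these 12 that stayed among the 3 most alike.

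GC content moved with several comparisons and is given beside them. Over 11617 genes, the Pearson r of a gene's GC content with its log2 fold change was 0.199 in KD against NT, 0.411 in OE against EV, 0.348 in EV against NT and 0.367 in OE against KD. KLK2 (51.1%), KLK3 (54.4%), KLK15 (53.8%) and KLK4 (61.3%) all lay above the median gene at 47.9%. With an offset for GC content, the rises of KLK2, KLK3 and KLK15 were 0.67, 0.70 and 0.81 in KD and 0.64, 0.62 and 1.16 in OE, all called. KLK4 was then at -0.67 in KD and -0.43 in OE, both called, and at 0.21 in OE against KD.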

How the data were processed

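RNA was measured in 10 LNCaP-C4-2 samples, grouped as the sample labels give them. The authors made the deposited counts from BBDuk-trimmed read pairs, which STAR (version 2.6.0a per the submitters' processing notes) aligned to the Ensembl hg38 transcriptome, by counting reads for each gene. The deposited counts are whole numbers, not normalized, and 0 columns were left out. How multiply mapping reads were counted is not given in the sources used here.

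Counts of 17230 genes that passed filterByExpr were scaled with TMM and tested with the quasi-likelihood F test of edgeR 4.0.16 (R 4.3.3) on all 10 samples, with 1 mean per line and Benjamini-Hochberg adjustment over all tested genes. Calls used an adjusted p under 0.0001, the limit the study used. Standard errors were taken from the F statistic. The procedure was tested on simulated data. The members and the gene lists were chosen with earlier results of these data known, and the lists were written from general knowledge. Named genes were the 4 members, CPT1A, tested genes of the kallikrein cluster and of the list of transcription factors and coregulators with an average log2 CPM of at least 1, at most 6 per other list by interaction p, and the 3 most alike to each member. Of the 51 genes this gave, not all are discussed, and some genes that the lists first held are not reported here. Positions, exon lengths and GC content came from GENCODE v44 on GRCh38 by symbol, and upstream sequences from RefSeq on GRCh38.p14, aligned globally with Biopython 1.88. All 4 members had RefSeq upstream sequences. Protein sequences were not used here.

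Results were recomputed with limma-voom (limma 3.58.1) and with the Wald test of DESeq2 1.42.0. Within edgeR they were recomputed with the size factors of DESeq2 or unscaled libraries, without a filter or with a minimum of 10 counts per library, with the replicate number as a block, for each arm by itself, at an adjusted p under 0.05, and leaving out each of the 10 samples in turn. An offset for GC content was added after the data were seen. Depth sets the counting error only, and the common biological coefficient of variation was 0.0446.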

Additional observations from a re-analysis of the deposited data

How the results depend on the processing

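For the 4 kallikreins, 388 values from other settings were compared with the values reported. Of these, 370 kept both direction and side of the limit of 0.0001, 9 were no longer past it, 6 were newly past it and 3 changed sign. The calls of KLK2, KLK3 and KLK15 in KD versus NT and OE versus EV, and of KLK4 in KD versus NT, held in all of these settings. Not every setting could lose a call. The limit of 0.05 reuses the same fit and cannot lose one. Leaving out a sample of a line outside a comparison hardly moves its estimate. It can still change the p-value, since all lines enter the estimate of spread. KLK4 in OE versus EV was newly called in this way without the second KD sample (-0.19). KLK4 in OE versus EV was called with library size only (-0.29), with the GC offset (-0.43) and at a limit of 0.05 (-0.19), and ranged from -0.23 to -0.14 with 1 sample left out. KLK4 in EV versus NT was -0.033 with the GC offset. The KLK4 interaction was called at 0.05 (0.32) and ranged from 0.28 to 0.39 with 1 sample left out. KLK15 in OE versus KD was not called with library size only (0.37), at least 10 counts in every sample (0.49) or the GC offset (0.38), and ranged from 0.41 to 0.56 with 1 sample left out. With 1 sample left out, KLK3 in EV versus NT ranged from 0.41 to 0.54, KLK15 in EV versus NT from -0.031 to 0.30, and the KLK2 interaction from -0.14 to 0.050. Where NT or EV was left with 1 sample, that sample was assumed to vary like the other groups.

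Genes called, with 1 sample left out, numbered 3110 to 5339 in KD versus NT, 1740 to 4969 in OE versus EV, 509 to 2438 in EV versus NT, and 1786 to 3696 for the interaction. Leaving out either NT or either EV sample gave the low counts, 3110 without the first NT sample, 1740 without the second EV sample, 509 without the first EV sample and 1786 without the first NT sample, and the highest count of each came without the second KD sample. At a limit of 0.05 the counts were 9905, 8956, 5867, 10301 for OE versus KD, and 7631 for the interaction. With no filter EV versus NT had 2306. The share of calls that were higher was 53.0% in OE versus EV, 48.6% in OE versus KD and 43.6% for the interaction, and with library size only 36.0%, 31.0% and 24.6%. That scaling moved the median of all genes by -0.13 in OE versus KD and for the interaction.

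Other named genes changed sign where the value was small. With the GC offset this was so in OE versus EV for CENPN (0.077), ELL2 (0.154) and FOLH1 (0.091), in EV versus NT for CTU1 (-0.0033) and GATA2 (-0.042), in OE versus KD for GATA2 (-0.102) and ABCC4 (0.026), and for the GATA2 interaction (-0.061). With library size only it was so in KD versus NT for CTU1 (0.0069), in OE versus KD for GATA2 (-0.0016) and FOLH1 (-0.0067), and for the interactions of FOXA1 (-0.081) and GATA2 (-0.129). With 1 sample left out, CTU1 in KD versus NT ranged from -0.153 to 0.104, CENPN in OE versus EV from -0.129 to 0.0059, and the GATA2 interaction from -0.014 to 0.038. The causes of these changes were not tested.

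With the replicate number as a replicate block, genes called numbered 5236, 4258, 1780, 5870 and 3108 in KD versus NT, OE versus EV, EV versus NT, OE versus KD and the interaction, and no call on a kallikrein changed. The labels do not say that a number marks a shared batch. Deviations from the line means had a mean r of 0.014 over 13 same-numbered pairs (-0.106 to 0.31) and of -0.0072 over 24 other pairs. In NT and EV, with 2 samples each, the deviations of the 2 samples mirror each other. These means therefore cannot decide whether the numbers pair the samples. Between KD and OE, with 3 samples each, same-numbered pairs had r of 0.016, 0.31 and 0.171, and other pairs -0.264 to 0.139.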

Other observations

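Other genes besides KLK2, KLK3 and KLK15 were also higher in both arms. Of the 17230 tested genes, 913 were called higher and 642 lower in both KD versus NT and OE versus EV. Another 164 were called higher in KD and lower in OE, as FKBP5 and ACSL3 were. KLK4 was in none of these groups, since its value in OE versus EV was not called.

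KLK14, of the same cluster and chosen after its values were seen, did not pass the filter on low counts. It had 8 and 10 counts in the NT libraries, 5, 6 and 11 in KD, 9 and 3 in EV, and 3, 2 and 2 in OE. These counts are too few to order the lines.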
